A study of Mus musculus with 40 samples.

Results

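The 10 genes described here encode the classical machinery by which cells show peptides to T cells, namely 7 genes of the major histocompatibility complex (MHC) class II pathway and 3 of class I. The class II genes are H2-Aa, H2-Ab1, H2-Eb1, Cd74, H2-DMa, H2-DMb1 and Ciita, and the class I genes are H2-K1, H2-D1 and B2m. Members were taken by gene symbol, and all 10 were found in each of 5 tables of mouse lung RNA-seq, 4 of which list 55260 genes and 1 of which lists 55286. The genes were chosen by measured values of these data. The values known to have been in view were the low H2-Aa and H2-Ab1 in the group ALL-VC against ALL, so that comparison is given as a description with no test.

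Class I molecules pair a heavy chain, such as H2-K1 or H2-D1, with the light chain B2m, and present peptides made by the proteasome in nearly every nucleated cell. Class II molecules pair an alpha with a beta chain (H2-Aa with H2-Ab1). The invariant chain Cd74 escorts them to endosomes, where the H2-DM dimer (H2-DMa with H2-DMb1) exchanges its remnant for other peptides. Ciita is the master switch of class II transcription, and it acts through the RFX, CREB and NF-Y factors on the X and Y boxes of class II promoters. Class II is best known from dendritic cells, macrophages and B cells. In the lung, alveolar type 2 (AT2) cells, the surfactant-making cells of the alveolus, also carry it.

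Organoids are small 3-dimensional structures grown in culture, here from the epithelium at the tips of embryonic mouse lung. Of the 40 libraries, 4 were tip epithelium, 1 for each of 4 embryonic (E) days a day apart, the youngest E10.5 and the oldest E13.5. Another 10 were organoids started at E9.5, E10.5, E11.5, E13.5 or E14 and cultured for 11 to 32 days, with 1 library for each combination of start and day. The factor series had 8 libraries, 2 numbered replicates of ALL and 2 each of its omission groups ALL-FGF10, ALL-MTG and ALL-VC. The LO series had 1 library each at days 8, 11 and 18 and 1 at day 11 with DCI. The 2C series had 1 library each of 2C, 2C+F10, 2C+MTG, 2C+VC and an ALL culture without a replicate number. An intact organoid and 8 organoid pieces, named by position from up-half to down-half-right, had 1 library each. The labels define neither ALL, LO and 2C nor F10, MTG, VC and DCI. The minus sign was read as an omission and the plus sign as an addition, which is an assumption. The labels name no strain, genotype, sex or age beyond the embryonic day, and do not say whether replicates were separate cultures or animals. P-values therefore measure only the spread between these libraries, which may be technical. For organoids against tips, that spread also includes embryonic stage and culture day.

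Values are in TPM, the usual share of all transcripts corrected for gene length, so depth per library is unknown. Column totals were 997840 to 999209 TPM, and 13036 to 14418 genes reached 1 TPM. As a check of the labels, the 10 AT2 markers summed to 700.41 to 1042.20 TPM in the tips and to 54691 to 136428 TPM in the organoids, and all 7 lung epithelium markers reached 1 TPM in every library. Markers of leukocytes that present antigen were near the bottom of the scale. Ptprc, the pan-leukocyte gene Cd45, did not exceed 0.24 TPM in any of the 40 libraries. Itgax, a dendritic cell integrin, was listed at 0 in 39 of 40. Of the 16 markers, 1 to 3 reached 1 TPM in an organoid of the culture series, with sums of 4.00 to 14.86 TPM, and 3 to 6 did so in a tip, with sums of 6.29 to 17.32 TPM. Cd79b and Cd68 made up the highest single values, at 17.4 and 5.61 TPM. In bulk RNA, more cells with a transcript and more transcript per cell cannot be told apart.

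Of the members, 7 lie on chromosome 17 of GRCm38 between 33996017 and 35267499, in the mouse MHC. They are H2-K1 (33996017-34000347), H2-DMa (34119541-34139101), H2-DMb1 (34153072-34160230), H2-Ab1 (34257689-34269419), H2-Aa (34282744-34287823), H2-Eb1 (34305867-34316674) and H2-D1 (35262730-35267499). B2m lies on chromosome 2 at 122147686-122153083. The promoters of 7 members were matched in a RefSeq table of GRCm38.p6, as windows from 250 bases before to 50 after a gene start. A set of 3 class II promoters is shown first, those of the 4 class II members in the table that held letters of both boxes. Capitals mark the X box core (CTNGNAAC), the cAMP response element (TGACGTCA) and the Y box core (GATTGG), searched on both strands with motif letters that were settled with these promoters in view.
H2-Aa (17:34287774-34288073, minus strand): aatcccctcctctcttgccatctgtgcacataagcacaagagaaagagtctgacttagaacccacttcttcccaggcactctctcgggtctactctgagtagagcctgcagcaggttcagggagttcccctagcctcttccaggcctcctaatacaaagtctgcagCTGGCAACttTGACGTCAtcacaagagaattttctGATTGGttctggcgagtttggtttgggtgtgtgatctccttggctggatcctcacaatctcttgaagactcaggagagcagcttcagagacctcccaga
H2-Eb1 (17:34305617-34305916, plus strand): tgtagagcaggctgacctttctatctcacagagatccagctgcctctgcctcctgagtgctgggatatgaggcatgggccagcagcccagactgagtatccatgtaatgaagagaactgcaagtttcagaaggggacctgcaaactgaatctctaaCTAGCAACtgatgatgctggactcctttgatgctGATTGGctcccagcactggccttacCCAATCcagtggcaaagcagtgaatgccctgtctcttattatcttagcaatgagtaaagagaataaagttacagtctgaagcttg
H2-DMb1 (17:34152941-34153240, plus strand): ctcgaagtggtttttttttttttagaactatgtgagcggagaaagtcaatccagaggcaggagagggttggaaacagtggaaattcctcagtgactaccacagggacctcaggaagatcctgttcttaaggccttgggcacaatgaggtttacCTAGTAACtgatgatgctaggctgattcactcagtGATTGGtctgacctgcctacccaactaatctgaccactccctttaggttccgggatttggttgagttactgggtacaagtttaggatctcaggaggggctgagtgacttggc
The X box core began at -84 in H2-Aa, -94 in H2-Eb1 and -97 in H2-DMb1, counted from the gene start. The Y box core followed 35, 34 and 35 bases further on. H2-DMa, the other class II member in the table, has 2 windows, in which no X box core was found and 1 Y box core, at -199. Singly, these letters are common: of 32851 promoter windows, 13.2% held the X box core, 16.1% the Y box core and 1.8% the cAMP response element. An X box core with a Y box core starting 30 to 40 bases after it, a spacing chosen after these windows were seen, was found in 15 windows (0.046%).

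The class I promoters of H2-D1 and B2m are shown as well, since class I is also driven by interferon. Capitals mark the interferon element core (TTTCNNTT, held by 23.9% of windows) and the Y box core on either strand.
H2-D1 (17:35262844-35263143, plus strand): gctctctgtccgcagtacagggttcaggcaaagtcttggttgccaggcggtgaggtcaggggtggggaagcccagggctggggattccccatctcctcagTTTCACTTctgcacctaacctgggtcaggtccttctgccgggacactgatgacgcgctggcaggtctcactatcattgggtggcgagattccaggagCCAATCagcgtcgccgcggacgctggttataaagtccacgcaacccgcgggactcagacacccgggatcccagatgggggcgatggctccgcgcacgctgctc
B2m (2:122147437-122147736, plus strand): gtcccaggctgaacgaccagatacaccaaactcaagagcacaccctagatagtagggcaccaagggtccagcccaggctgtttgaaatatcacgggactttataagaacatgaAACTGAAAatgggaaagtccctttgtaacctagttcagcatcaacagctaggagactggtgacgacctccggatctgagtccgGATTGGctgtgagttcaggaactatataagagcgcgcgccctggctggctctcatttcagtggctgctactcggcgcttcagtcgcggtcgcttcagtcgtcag
The interferon core began at -150 in H2-D1 and at -137 in B2m, and the Y box core at -53 and -54. Not in capitals are an X box core on the other strand of H2-D1, at -212, and an interferon element core on the other strand of H2-Aa, at -213. A match of letters is a description of the window and not a measured binding site.

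The remaining members lie elsewhere. Cd74 is on chromosome 18 at 60803848-60812652, and Ciita on chromosome 16 at 10480059-10528418. All 10 members are annotated as protein-coding genes.

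The mean level of every member was higher in cultured organoids than in uncultured tips, with the widest gap for the class II chains and the invariant chain. H2-Aa was listed at 0 TPM in all 4 tips. In the 10 organoids it ran from 2.52 TPM (E9.5, day 13) to 389.6 TPM (E13.5, day 30), with a median of 66.0 TPM. Its beta chain partner H2-Ab1 was at 3.57, 0.49, 0.65 and 0 TPM in the tips, from the youngest to the oldest. In the organoids it was at 1.34 to 249 TPM, with only the E9.5 organoid within the range of the tips. Cd74 was the most abundant member in organoids, at 44.7 to 1849 TPM against 0.67, 3.25, 0.27 and 3.46 TPM in the tips. H2-Eb1, the beta chain of a second class II isotype, was listed at 0 in 3 tips and at 0.52 TPM in the E13.5 tip, against 0.39 to 113 TPM in organoids. The tips and the organoids did not overlap for Cd74 or H2-Aa.

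Of the peptide editor genes, H2-DMa had RNA in every tip before culture, whereas H2-DMb1 was near the bottom of the scale there. H2-DMa was at 9.57, 7.37, 3.12 and 5.29 TPM in the tips and at 6.35 to 44.0 TPM in the organoids, and the E9.5 organoid lay within the tips' range. H2-DMb1 was at 0.54, 2.02, 1.23 and 0.77 TPM in the tips and at 3.71 to 55.7 TPM in the organoids, without overlap. Ciita, the class II switch, was listed at 0 in 3 tips and at 1.56 TPM in the E11.5 tip, against 0.51 to 9.89 TPM in organoids. Class I was already high in tips. H2-K1 stood there at 49.1, 79.6, 73.6 and 49.2 TPM, H2-D1 at 31.3, 19.1, 26.0 and 22.5 TPM and B2m at 37.5, 52.5, 48.4 and 45.5 TPM. Every organoid lay above every tip for these 3 genes, at 197 to 935 TPM for H2-K1, 53.4 to 567 TPM for H2-D1 and 186 to 714 TPM for B2m. The share of all genes that part tips from organoids without overlap was not counted, so such statements describe the members only.

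Organoids were tested against tips with limma on log2(TPM + 1), a scale that understates changes of low genes. A gene was called at an adjusted p under 0.05 over 16779 genes. Stages and culture days were pooled within tips and within organoids, so libraries of unlike stage or day stood in for replicates. On that scale Cd74 was 7.30 higher (SE 0.94, adjusted p = 6.2e-06), H2-Aa 5.92 (SE 1.09, 2.0e-04) and H2-Ab1 4.27 (SE 1.14, 0.0041). H2-Eb1 was 3.71 higher (adjusted p = 0.0056), H2-DMb1 3.57 (4.3e-05), Ciita 1.70 (0.0028) and H2-DMa 1.50 (0.0053). The class I genes were 2.79 higher for H2-K1 (8.6e-06), 2.64 for B2m (2.2e-06) and 2.52 for H2-D1 (8.2e-04). All 10 members were thus called higher, where 21.7% of all genes tested were. Only Cd74, H2-DMa, H2-DMb1, H2-K1, H2-D1 and B2m (6 of 10) reached 1 TPM in at least 2 tips. The other 4 entered the test through the organoids, where they are high, so the count itself is no support. The 9 AT2 markers called higher moved with the members (Sftpc by 9.81), and the tenth, Etv5, was lower (-1.06). Among other cell markers, 5 of 6 for mesenchyme and 4 of 5 for endothelium were called lower, where 40.2% of all genes were. The endothelium genes were Cdh5 (-1.99), Kdr (-1.85), Pecam1 (-1.39) and Emcn (-1.04). The mesenchyme gene Dcn was not called (0.52, adjusted p = 0.67). Mesenchyme sums ran from 2.59 to 314.8 TPM in organoids, against 90.54 to 191.81 TPM in tips, so not every organoid was low. Of the leukocyte markers Coro1a (-2.04), Laptm5 (-1.07) and Tyrobp (-0.87) were lower and Cd79b higher (1.59). The part of these lists in the result was not tested.

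Other genes of the pathway moved in part with the members. Of all genes tested, 21.7% were called higher and 40.2% lower. Of 14 genes that supply class I with peptides, 8 were higher and 3 lower in organoids, led by the immunoproteasome subunit Psmb8 (3.46), the peptide transporter Tap2 (3.30), Tapbpl (2.61) and tapasin, Tapbp (2.52). Of 9 further class II and endosomal genes 6 were tested, and 4 were higher and 1 lower. The higher ones were the thiol reductase Ifi30 (2.11), H2-DMb2 (1.93) and the proteases Lgmn (1.27) and Ctsl (1.19). Of 7 factors that bind class II promoters 5 were lower, where 40.2% of all genes were called lower, and they include Nfyb (-1.83), Nfya (-1.10), Creb1 (-0.93) and Rfxap (-0.91). Rfx5, named after its value was seen, was the 1 higher (0.44). Of 10 interferon gamma signalling genes 9 were tested, and 7 were higher and 2 lower. The largest differences were those of Irf2 (2.11), Irf1 (1.72), Jak2 (1.49) and the receptor chain Ifngr1 (1.16). The ligand gene Ifng itself was listed at 0 in all 40 libraries. Of 12 non-classical class I genes 11 were tested, and these were mixed, with 3 higher and 4 lower. Examples are H2-T23 (2.37) and Mr1 (1.47) against H2-Q2 (-2.33) and H2-Q1 (-1.77). Of 4 costimulatory genes only 2, Icosl and Cd40, entered the test. Icosl was called lower (-0.71), and Cd40 was not called (-0.70, adjusted p = 0.06).

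**Figure D1:**
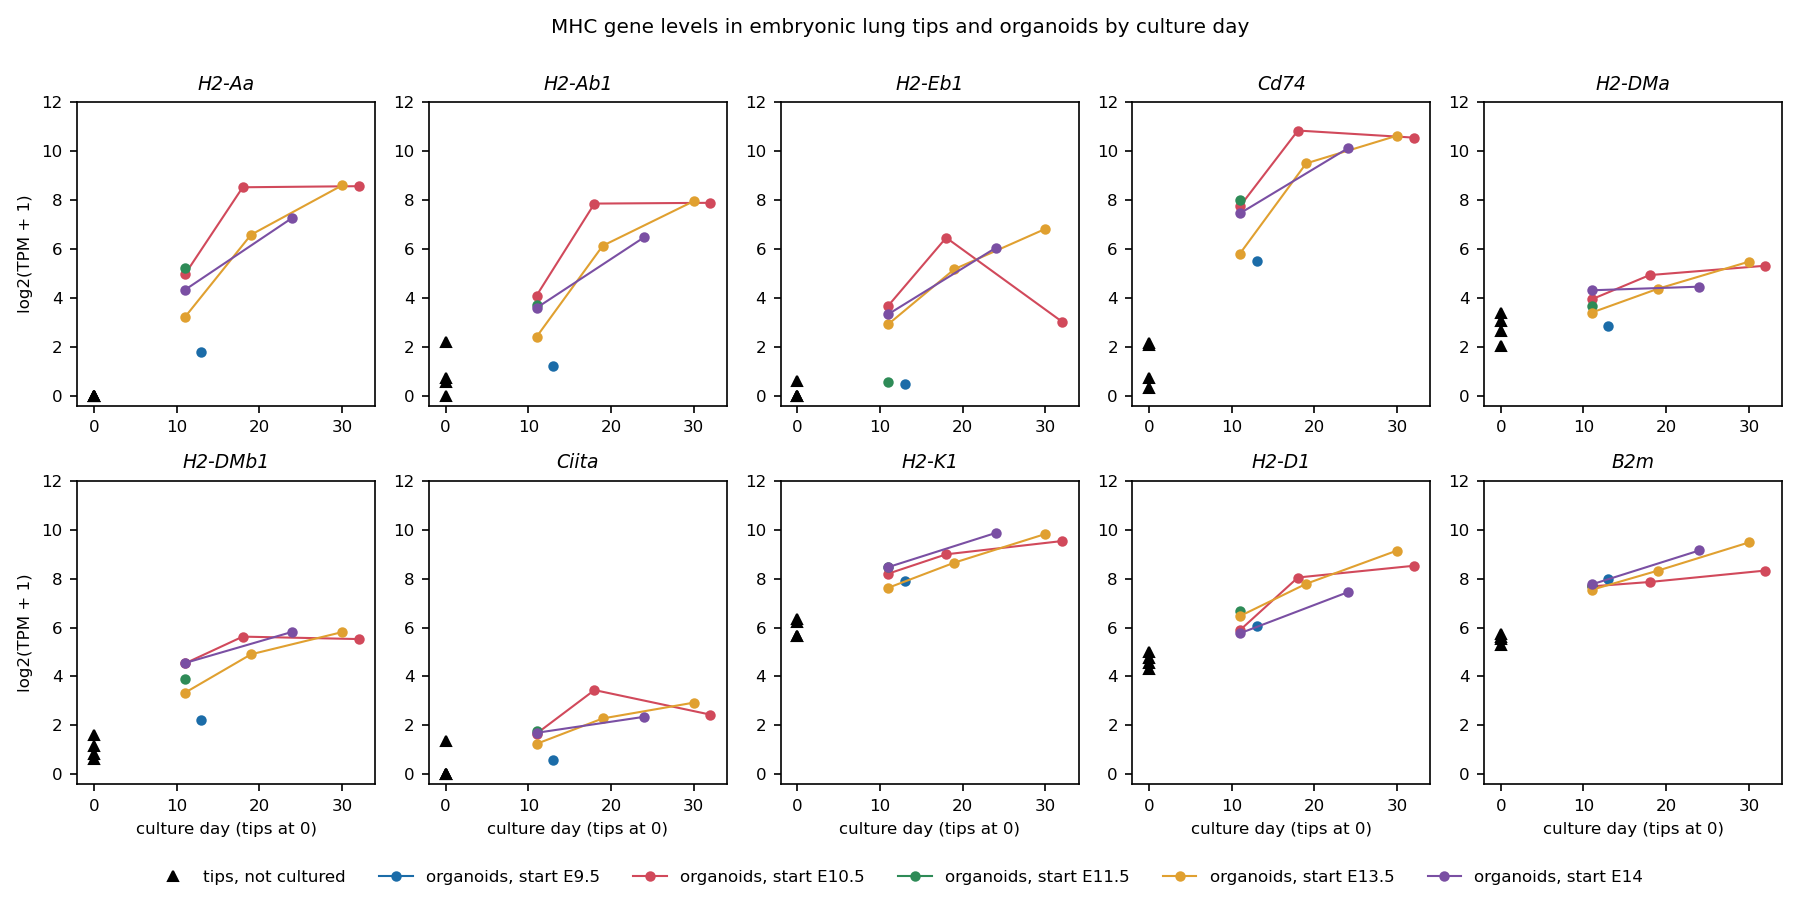
Level of each member on the log2(TPM + 1) axis against culture day, with the 4 uncultured tips as triangles at day 0 and the 10 organoids as points joined within a start stage. H2-Aa, H2-Ab1 and Cd74 lie near 0 in the tips and highest in the organoids of day 18 or later. H2-DMa and the class I genes are already above 0 in all tips, and H2-Eb1 is at 7.22 TPM in the E10.5 organoid of day 32.

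Within organoids, class II levels were higher at later culture days. H2-Aa was at 30.3, 36.5, 8.31 and 19.2 TPM at day 11 (starts E10.5, E11.5, E13.5 and E14) and at 2.52 TPM at day 13. It was at 369.6 TPM at day 18, 95.5 at day 19, 155 at day 24, 389.6 at day 30 and 381 at day 32. H2-Ab1 followed the same order of libraries closely, from 1.34 to 16.2 TPM at days 11 to 13 and from 69.6 to 249 TPM at days 18 to 32. Cd74 went from 44.7 to 258 TPM up to 729 to 1849 TPM. For 8 of 10 members the 5 later organoids all lay above the 5 earlier ones, where this held for 2.10% of all genes. The exceptions were H2-Eb1, which was at 0.39 to 11.9 TPM early and at 87.8, 35.4, 65.6, 7.22 and 113 TPM late, and B2m, whose E10.5 organoid of day 18 (232 TPM) lay below the E9.5 organoid of day 13 (251 TPM).

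Pairs of organoids from 1 start stage gave the same picture. In 5 such pairs of day 11 with a later day, the later H2-Aa level was 8.08- to 46.9-fold the earlier one, H2-Ab1 7.98- to 57.4-fold and Cd74 6.31- to 28.7-fold. Class I ratios were smaller pair by pair, at 1.73 to 4.61 for H2-K1, 2.51 to 6.47 for H2-D1 and 1.13 to 3.85 for B2m. Ratios of that size also came from H2-DMa (1.11 to 4.57), H2-DMb1 (2.04 to 6.09) and Ciita (1.83 to 4.83). From E10.5, the pseudogene H2-Ea-ps was at 0.641 of H2-Aa at day 11, against 0.0052 and 0.0236 at days 18 and 32. The part of that difference in the H2-D1 ratios was not tested. H2-Eb1 was higher later in 4 of 5 pairs, and in the pair from E10.5 with day 32 it was at 0.605-fold. Levels of H2-Aa, H2-Ab1 and Cd74 at E10.5 were about as high at day 18 as at day 32, whereas those from E13.5 were higher at day 30 than at day 19.

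A slope on culture day, with start stage as a covariate in the same 14 libraries, was fitted per 10 days, and the spread around the line stands in for replicates. It was called upward for 7 of 10 members, against 2.97% of all genes. H2-Ab1 rose by 2.46 (log2 per 10 days, SE 0.50, adjusted p = 0.011), H2-Aa by 2.33 (SE 0.51, 0.015) and Cd74 by 1.91 (SE 0.47, 0.025). H2-D1 rose by 1.30 (0.0026), H2-K1 by 0.83 (0.0065), H2-DMa by 0.82 (0.021) and B2m by 0.63 (0.0099). The slopes of H2-Eb1 (1.40, adjusted p = 0.16), H2-DMb1 (1.00, 0.051) and Ciita (0.63, 0.17) did not pass. Without the E10.5 organoid of day 32 the calls of H2-Aa, H2-Ab1, Cd74 and H2-DMa were lost and 3 members were called, all of class I. In all, the Cd74 call was lost in 5 of 15 alternative settings. These include leaving out the day 11 organoid of E13.5, that of E14 or the E13.5 organoid of day 30. The last of these also cost the H2-DMa call. H2-DMb1 passed in 5 of the 15, among them those without the E10.5 organoid of day 11 or 18 or the E9.5 organoid.

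Genes that work with class I moved alongside. Of the 14 peptide supply genes, 7 rose with culture day and 1 fell, led by the immunoproteasome subunits Psmb8 (1.53) and Psmb9 (1.11) and the transporter chains Tap2 (0.92) and Tap1 (0.84). Of 12 non-classical class I genes 9 rose, led by H2-Q6 (1.36), H2-Q10 (1.29), H2-Q1 (1.11) and H2-Q2 (0.97). These H2-Q genes and the class I heavy chains are close copies of one another, as H2-DMb1 and H2-DMb2 are, and how reads were split between copies is uncertain. Of the interferon gamma list Jak2 rose (0.38), and of the promoter factors Nfya fell (-0.27). Only 7 of the 16 leukocyte markers entered the test, and none had a called slope (Aif1 0.69, adjusted p = 0.068). The 16 markers summed to 4.00 to 7.46 TPM at days 11 to 13 and to 6.96 to 14.86 TPM at days 18 to 32. Of the 10 AT2 markers 1 rose, Sftpd (2.32, adjusted p = 0.018), and 0 fell. The part of both lists in the slopes was not tested.

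In the factor series all 10 members stood highest in the ALL group. Their levels in ALL-FGF10 and in ALL-MTG lay below both ALL libraries, without overlap, for 10 of 10 members. Among all genes this held for 21.9% with ALL-FGF10 and 14.8% with ALL-MTG. The 3 omissions share the same pair of ALL libraries, and the ALL-VC comparison is the one in view when the genes were chosen, so the counts are not independent of that choice or of one another.

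The class II chains had the widest spread. H2-Aa was at 665 and 762 TPM in ALL, 199 and 208 in ALL-FGF10, 159 and 87.0 in ALL-MTG and 23.5 and 47.3 in ALL-VC. H2-Ab1 was at 406 and 438 TPM in ALL, 128 and 115 in ALL-FGF10, 114 and 50.6 in ALL-MTG and 12.3 and 16.3 in ALL-VC. For both genes ALL-FGF10 came next after ALL, then ALL-MTG and last ALL-VC, with no overlap between neighbouring groups. Cd74 was at 2302 and 2600 TPM in ALL, 1143 and 1081 in ALL-FGF10, 919 and 592 in ALL-MTG and 234 and 369 in ALL-VC, in the same order.

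H2-Eb1 departed from that order in 1 library. It was at 134 and 168 TPM in ALL, 44.0 and 40.2 in ALL-FGF10, 1.89 and 28.9 in ALL-MTG and 11.2 and 11.0 in ALL-VC. The ALL-MTG replicates thus lay on either side of ALL-VC. The editor gene H2-DMa was at 54.7 and 65.9 TPM in ALL and between 18.3 and 28.9 TPM in the 6 omission libraries, which overlapped one another. H2-DMb1 was at 54.0 and 59.1 TPM in ALL, 29.2 and 29.7 in ALL-FGF10, 38.1 and 26.3 in ALL-MTG and 18.6 and 17.5 in ALL-VC. The switch gene Ciita was at 9.22 and 8.18 TPM in ALL, 7.07 and 7.89 in ALL-FGF10, 6.53 and 1.17 in ALL-MTG and 0.81 and 2.10 in ALL-VC. Its mean in ALL was 1.16-fold that in ALL-FGF10, where the ratio for H2-Aa was 3.51.

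**Figure D2:**
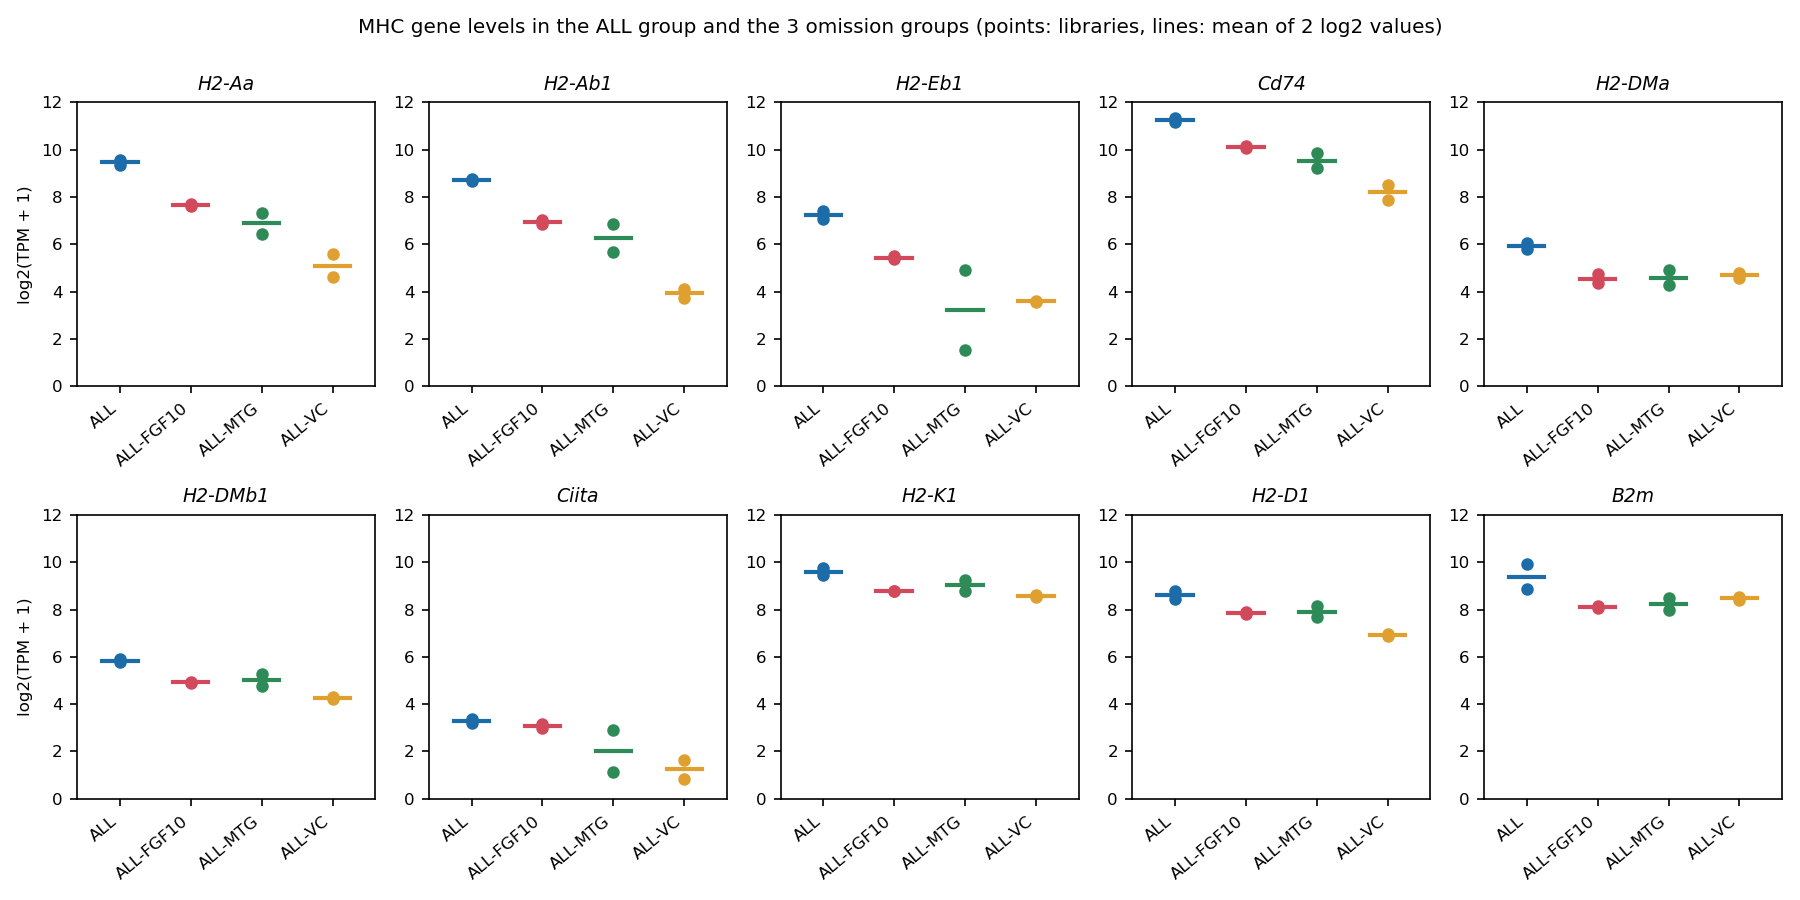
Level of each member on the log2(TPM + 1) axis in the ALL group and the 3 omission groups, with points for the 2 libraries of a group and lines for the mean of their log2 values. H2-Aa, H2-Ab1 and Cd74 step down from ALL through ALL-FGF10 and ALL-MTG to ALL-VC, whereas class I genes lie closer together.

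Class I members differed less than H2-Aa, H2-Ab1 and H2-Eb1, but not less than every class II member. With FGF10 omitted, the mean in ALL was 2.57-fold that of the omission for B2m, against 2.2-fold for Cd74 and 1.92-fold for H2-DMb1. H2-K1 was at 854 and 704 TPM in ALL, 443 and 437 in ALL-FGF10, 608 and 446 in ALL-MTG and 368 and 394 in ALL-VC. H2-D1 was at 442 and 346 TPM in ALL, 222 and 240 in ALL-FGF10, 279 and 207 in ALL-MTG and 116 and 125 in ALL-VC. B2m was at 961 and 466 TPM in the ALL replicates and between 250.1 and 371 TPM in the other 6 libraries. The ALL replicate that was high in B2m was also high in Nlrc5, the class I counterpart of Ciita (4.60 against 0.48 TPM). The part of that library in the class I differences was not tested beyond leaving it out.

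The tests with limma ran over 14802 genes in a fit of all 8 libraries. Against ALL, omission of MTG gave calls for H2-Aa (-2.58, SE 0.36, adjusted p = 0.033), H2-Ab1 (-2.45, SE 0.34, 0.033) and Cd74 (-1.73, SE 0.27, 0.047), which fell. These are 3 of 10 members, where 0.378% of all genes were called lower. The ALL libraries are those of the ALL-VC comparison that was in view when the genes were chosen. The calls and this count are therefore not independent of that choice. The Cd74 call was lost in all 14 alternative settings, and the calls of H2-Aa and H2-Ab1 in 9 of 14 each. Leaving out either ALL library or either ALL-FGF10 library cost both calls, either ALL-VC library that of H2-Ab1, and either ALL-MTG library that of H2-Aa. H2-Eb1 was called without either ALL-MTG library, and B2m without the second ALL replicate, here and with FGF10 omitted.

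Omission of FGF10 gave a call for H2-DMa alone (-1.38, SE 0.25, adjusted p = 0.047), 1 of 10 members, where 0.953% of all genes were called lower. The same ALL libraries serve here, so this test is not independent of the choice of genes either. H2-Aa (-1.80, adjusted p = 0.06), H2-Ab1 (-1.79, 0.05, just over the threshold) and Cd74 (-1.14, 0.092) did not pass. The H2-DMa call was lost in 10 of 14 alternative settings, among them leaving out the replicate 2 of ALL or any 1 of the ALL-VC and ALL-FGF10 libraries. Without either ALL-MTG library 6 members were called, namely H2-Aa, H2-Ab1, H2-Eb1, H2-DMa, H2-DMb1 and H2-K1. Which members pass in these groups of 2 thus changes with the libraries that set the common spread, while all 10 differences kept their sign in each setting of both omissions.

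The contrast of ALL-FGF10 with ALL-MTG uses no ALL or ALL-VC library as an arm. It gave limma calls for 0 of 10 members, where 3.52% of all genes were called. At an unadjusted p under 0.05 there was 1 member (H2-Eb1), where 2703 of 14802 genes were. H2-Aa was 0.78 higher in ALL-FGF10 (adjusted p = 0.31). Leaving out an ALL-MTG replicate gave 1 call, of H2-Ab1 without the first and of H2-Eb1 without the second.

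For ALL-VC against ALL, described with no test, the log2 differences were -4.80 for H2-Ab1, -4.37 for H2-Aa, -3.65 for H2-Eb1, -3.05 for Cd74, -2.03 for Ciita, -1.59 for H2-DMb1 and -1.25 for H2-DMa. The class I genes were at -1.69 for H2-D1, -1.02 for H2-K1 and -0.91 for B2m. As ratios of mean TPM, ALL stood 29.5-fold over ALL-VC for H2-Ab1, 20.2-fold for H2-Aa and 2.05-fold for H2-K1. Without the first ALL replicate the B2m difference was -0.38, and without the second -1.43. The pseudogene H2-Ea-ps went the other way (0.78), at 6.56 and 8.04 TPM in ALL-VC against 4.57 and 3.14 TPM in ALL. H2-D1 stood at 0.315 and 0.318 of H2-K1 in ALL-VC, against 0.517 and 0.491 in ALL. The cause was not tested.

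Few other genes of the pathway were called in the factor series. With FGF10 omitted, 4 of 14 peptide supply genes fell, namely Tap1 (-1.62), Psmb10 (-1.34), Psme2 (-1.04) and Psme1 (-0.81). Of 9 further class II genes 2 fell, H2-Ea-ps (-1.77) and H2-DMb2 (-1.27). With MTG omitted none of these lists had a call. The class II promoter factors had no call in either omission, with median differences of 0.15 and 0.06 against 0.10 and 0.07 over all genes. The AT2 markers, summed, were at 64490 and 99704 TPM in ALL and between 66922 and 109955 TPM in the omission groups, so that the ALL libraries spanned most of the range. By gene, Lyz2, the lysozyme gene of that list, fell with MTG omitted (-3.54, adjusted p = 0.027). The surfactant protein genes Sftpa1 (-2.16, 0.073) and Sftpd (-2.03, 0.1) and the transporter gene Slc34a2 (-1.22, 0.14) did not pass there, and the list had a median of -0.88 against 0.07 over all genes. Leukocyte markers, summed, were highest in ALL, at 12.93 and 19.46 TPM against 2.80 to 8.25 TPM in the omissions. These sums rest on few genes, with 2 or 3 of 16 at 1 TPM or more in ALL and 10 or 11 listed at 0 there. Only 3 of 16, Cd79b, Cd68 and Aif1, entered the test, and none was called with FGF10 or MTG omitted. Cd79b differed by -0.67 with FGF10 omitted and by -1.76 with MTG omitted. Cd68 differed by -1.16 and -0.14, and Aif1 was lower in both. The part of both lists in the differences was not tested.

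The LO series had 1 library per condition and hence no test. The count takes genes with a difference of 1 or more in log2(TPM + 1) and 5 TPM or more in the higher library. From day 8 to day 11, 8 of 10 members were counted higher, against 2.38% of all genes, and these were the 7 class II genes and H2-D1. H2-Aa went from 26.1 to 212 TPM, H2-Ab1 from 9.30 to 106, H2-Eb1 from 11.4 to 77.0 and Cd74 from 92.0 to 664 TPM. Over the same step 7 of 10 AT2 markers (sum 13068 to 38444 TPM) and 4 of 6 mesenchyme markers (sum 13.79 to 68.29 TPM) were counted higher, and their part was not tested. Some AT2 genes were still low at day 11, with the phosphate transporter Slc34a2 at 17.6 TPM and the lamellar body gene Lamp3 at 10.2 TPM. From day 11 to day 18, 4 of 10 members were counted higher (6.32% of all genes), namely H2-Ab1 (243 TPM), Cd74 (1898), H2-K1 (198 to 481) and H2-D1 (108 to 261). H2-Aa reached 357 TPM, a difference of 0.75, and H2-DMa went from 48.3 to 38.2 TPM. Here 9 of 10 AT2 markers were counted higher (sum 121196 TPM) and 4 mesenchyme markers lower (sum 3.58 TPM), and their part was not tested either.

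With DCI at day 11, class II and class I parted. All 7 class II members were lower than at day 11 without it, where 13.0% of all genes were. H2-Aa was at 3.51 against 212 TPM, a 60.5-fold ratio, H2-Ab1 at 1.93 against 106 TPM and H2-Eb1 at 2.07 against 77.0 TPM. Cd74 was at 52.9 against 664 TPM, H2-DMa at 7.87 against 48.3, H2-DMb1 at 6.55 against 41.1 and Ciita at 0.50 against 7.27 TPM. Each of these levels was also below that of day 8. H2-D1 was the 1 member counted higher, at 339 against 108 TPM, where 11.2% of all genes were higher. H2-K1 was at 201 against 198 TPM and B2m at 156 against 234 TPM. The same library had high AT2 genes, with Slc34a2 at 1336 TPM and Lamp3 at 404 TPM, and 8 of 10 AT2 markers counted higher than at day 11. Of the 7 class II promoter factors 1 was counted lower, with a median of -0.76 against -0.08 over all genes. No leukocyte marker reached 5 TPM in either library.

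**Figure D3:**
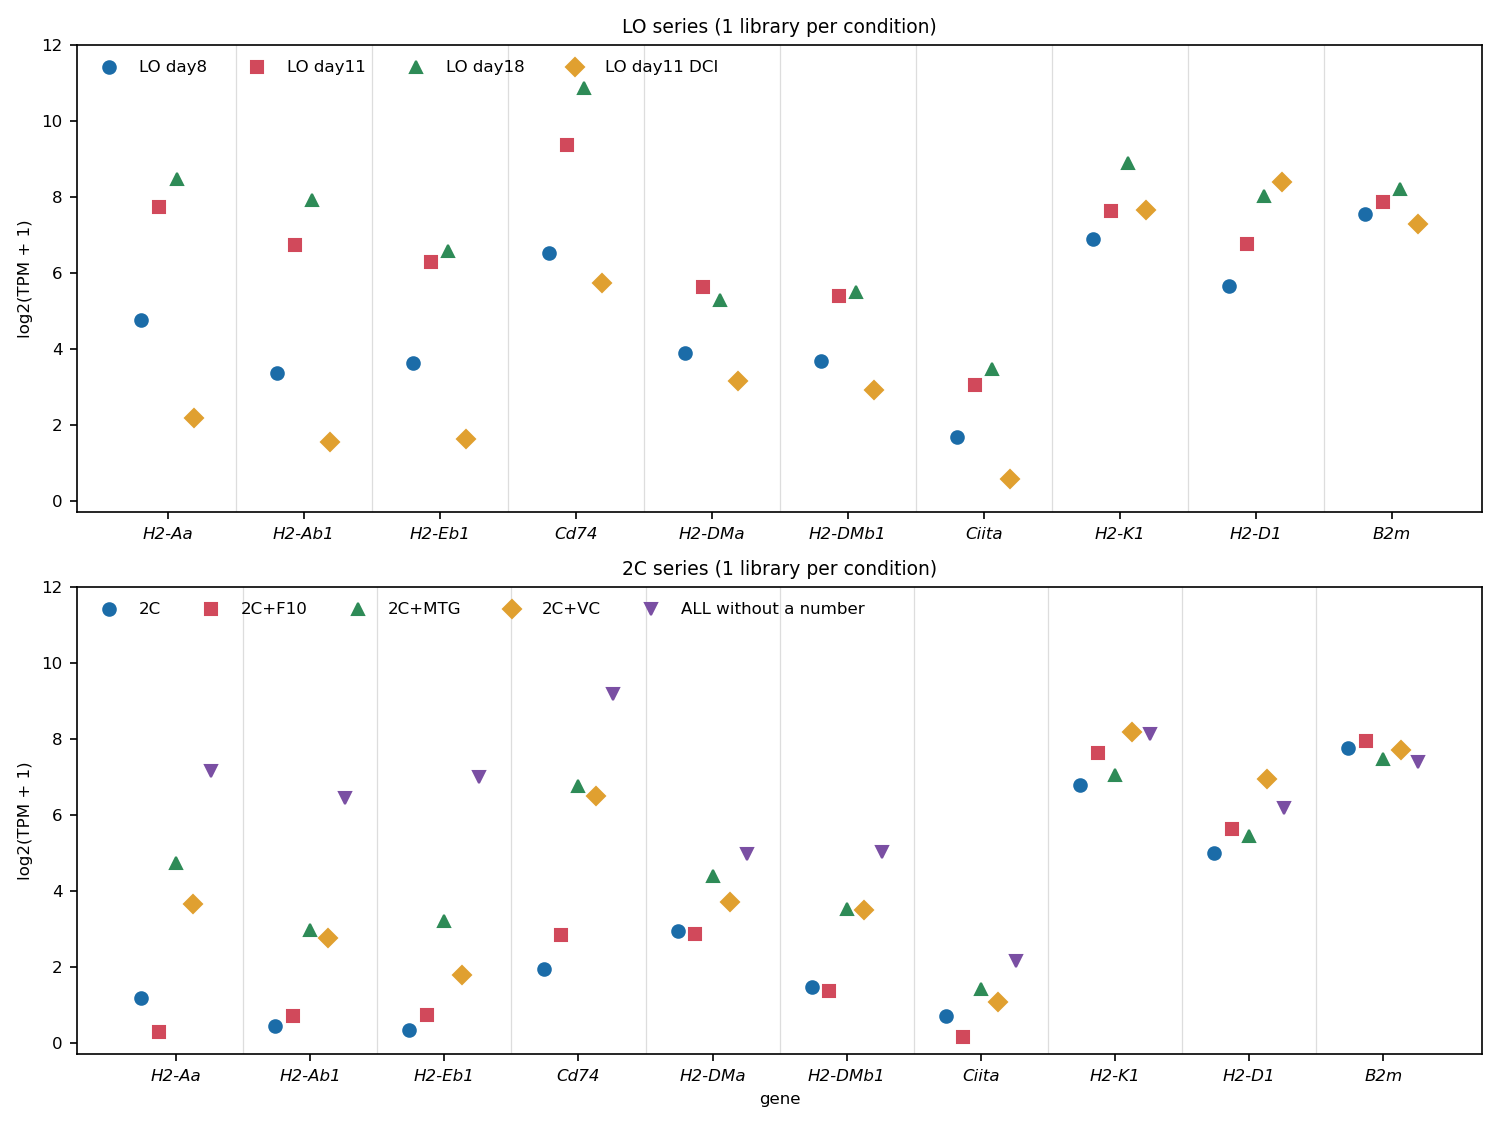
Level of each member on the log2(TPM + 1) axis in the 4 LO libraries (top) and the 5 libraries of the 2C series (bottom), 1 point per library. The DCI library lies lowest for all 7 class II genes and highest for H2-D1. The ALL culture without a number lies highest for class II in the lower panel.

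The 2C culture had low class II levels. H2-Aa was at 1.25 TPM, H2-Ab1 at 0.36, H2-Eb1 at 0.27, Cd74 at 2.87 and Ciita at 0.62 TPM, beside H2-K1 at 109.63, H2-D1 at 30.8 and B2m at 215 TPM. The levels of H2-K1 and H2-D1 were below those of all 10 organoids of the culture series (197 and 53.4 TPM or more). Of these genes, H2-Ab1, H2-Eb1, Cd74, Ciita and H2-D1 lay inside the range of the 4 tips, which are in another table, although Sftpc, the surfactant protein C gene of AT2 cells, was at 24913 TPM. With F10 added, 0 of 10 members were counted higher, against 3.08% of all genes, and H2-Aa was at 0.21 and Cd74 at 6.18 TPM. Only 5 of the 10 reached the limit of 5 TPM and could be counted. Of the AT2 markers 5 of 10 were counted higher and 0 lower. Of the mesenchyme markers 3 of 6 were (sum 3.48 to 95.72 TPM), and the part of both lists was not tested. With MTG added, 6 of 10 members were counted higher, against 2.59% of all genes. H2-Aa was at 25.5, H2-Ab1 at 6.82, H2-Eb1 at 8.20, Cd74 at 108, H2-DMa at 19.9 and H2-DMb1 at 10.51 TPM, while H2-K1 (132), H2-D1 (42.9) and B2m (177) were within the limits. None of the 3 class I members was counted, and of the AT2 markers 4 were counted lower in that library and 1 higher.

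With VC added, members of both classes were higher. The 6 of 10 members counted (5.81% of all genes) were H2-Aa (11.6 TPM), H2-Ab1 (5.74), Cd74 (89.3), H2-DMb1 (10.3), H2-K1 (290.23) and H2-D1 (122). Here 9 of 10 AT2 markers were counted higher as well. B2m was at 209 TPM, next to 215 in 2C. In the ALL culture without a number, 8 of 10 members were higher than in 2C, against 4.89% of all genes. H2-Aa was at 142, H2-Ab1 at 86.5, H2-Eb1 at 126 and Cd74 at 586 TPM there. Of the AT2 markers 7 of 10 were counted higher than in 2C and 1 lower (sum 27304 to 112132 TPM), and their part was not tested. Ciita was at 3.43 TPM, under the limit of 5 TPM, and B2m at 166 TPM. No addition of 1 factor reached these class II levels. That library also stood apart from the numbered ALL replicates of the other table, whose mean was 5.01-fold higher for H2-Aa, 4.88-fold for H2-Ab1, 4.18-fold for Cd74 and 1.20-fold for H2-Eb1. It entered no test.

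Among the 8 pieces, the highest level of a member over the lowest was 6.95-fold for H2-Aa, 6.78-fold for H2-Ab1 and 75.9-fold for H2-Eb1, against 3.33-fold for Cd74 and 1.77-fold for H2-K1. H2-Aa was at 207 TPM in the intact organoid, 637 and 268 TPM in up-half and down-half, and 390.2 and 160.4 TPM in left-half and right-half. In the smaller pieces it was at 92.7 (up-half-left), 91.7 (up-half-right), 262 (down-half-left) and 166 TPM (down-half-right). The up pieces held both the highest and the lowest H2-Aa level and overlapped the down pieces, as they did for 9 of 10 members, and 8.32% of all genes at 1 TPM in at least 2 of these libraries did not overlap. The exception was B2m, at 380.2 to 411 TPM in the 3 up pieces and 421 to 678 TPM in the 3 down pieces. Left and right pieces overlapped for 8 of 10 members, where 6.16% of all genes did not. The exceptions were H2-DMa (17.8 to 51.5 against 15.4 to 16.5 TPM) and H2-DMb1 (34.9 to 72.5 against 24.3 to 29.1 TPM). With 1 library per piece, a position and the library cannot be told apart.

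Class I was highest in right-half and down-half-right. B2m was at 892 and 678 TPM there, against 380.2 to 615 TPM elsewhere. H2-D1 was at 559 and 518 TPM in the same libraries and at 434 TPM in down-half-left, against 127 to 228 TPM in the other 6 libraries. Nlrc5 was at 8.76 TPM in right-half against 1.86 TPM or less in all other pieces and the intact organoid. The leukocyte markers summed to 8.34 to 24.2 TPM over the pieces, and their part was not tested.

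**Figure D4:**
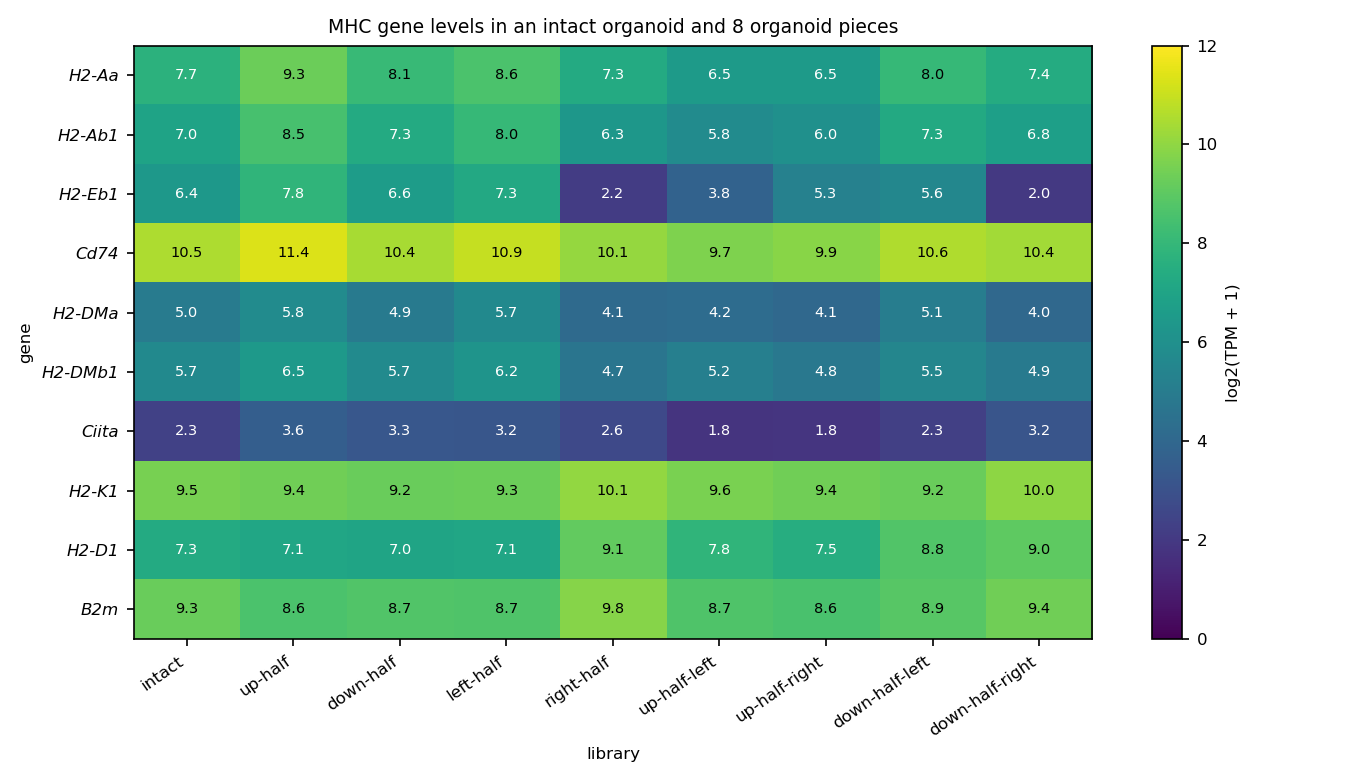
Level of each member (rows) in the intact organoid and the 8 pieces (columns), as log2(TPM + 1) by colour and printed value. H2-Aa and Cd74 are highest in up-half, B2m and H2-D1 in right-half, and H2-Eb1 is low in right-half and down-half-right.

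Across libraries, H2-Ab1 and Cd74 kept closer to a fixed proportion of H2-Aa than H2-Eb1 did. In the 32 libraries with H2-Aa of at least 5 TPM, H2-Ab1 was at 0.268 to 0.729 of H2-Aa (median 0.581) and Cd74 at 3.12 to 10.1 times H2-Aa (median 5.76). H2-Eb1, the beta chain of the other class II isotype, ran from 0.0119 to 0.887 of H2-Aa with a median of 0.306. The low end was made of 5 libraries, namely ALL-MTG replicate 1 (0.0119), the E11.5 organoid of day 11 (0.0131), down-half-right (0.0181), the E10.5 organoid of day 32 (0.0189) and right-half (0.0215). The next lowest was up-half-left at 0.138. Their H2-Aa levels, 36.5 to 381 TPM, lay inside the range of the rest.

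**Figure D5:**
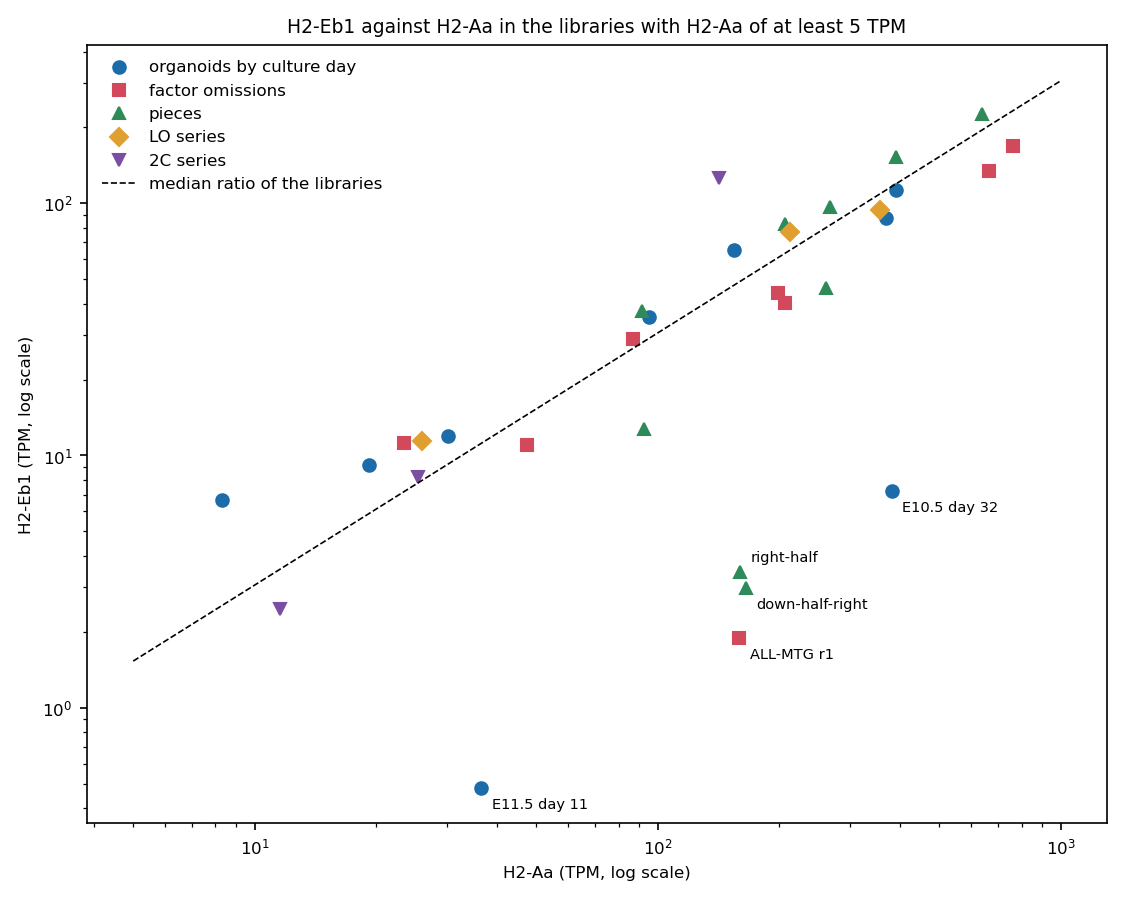
H2-Eb1 against H2-Aa, both in TPM on log axes, in the 32 libraries with H2-Aa of at least 5 TPM, with the dashed line at the median ratio of 0.306. The 5 named libraries lie far below the line, with ratios of 0.0119 to 0.0215.

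The likeness of other genes to H2-Ab1 was measured as Pearson's r of log2(TPM + 1) over the 10 organoids and over the 8 factor libraries, ranked by the lower of the 2 values among 11377 genes. Libraries of a set share tables and many genes vary with culture day, so these are descriptions. Among members, H2-Aa (0.994 and 0.990) and Cd74 (0.986 and 0.993) were closest, followed by H2-DMb1 (0.940 and 0.964), H2-D1 (0.889 and 0.971), Ciita (0.947 and 0.880) and H2-K1 (0.871 and 0.867). H2-DMa (0.951 and 0.703), H2-Eb1 (0.778 and 0.648) and B2m (0.625 and 0.435) were further off. Outside the members, the 6 genes most like H2-Ab1 were Itih4 (0.938 and 0.937), 5830428M24Rik (0.932 and 0.968), Sema4a (0.964 and 0.927), Akr1b8 (0.923 and 0.978), the lysosomal protease Ctsb (0.915 and 0.922) and Rnf186 (0.902 and 0.952). The level of Itih4 was at 0.25 to 0.84 TPM in organoids of days 11 to 13 and at 5.17 to 43.2 TPM at days 18 to 32, but at 0.20 TPM in the LO library of day 11, where H2-Ab1 was at 106 TPM.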

How the data were processed

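RNA of 40 mouse libraries was measured by mRNA-seq (VAHTS mRNA-seq v2 kit, Illumina NovaSeq X Plus, per the labels' protocols). The authors deposited 5 tables of TPM, for which the submitters' processing notes name RSEM, Bowtie2 and mm10; their versions are not given in the sources used here. TPM keeps no depth, so counting precision is unknown. Columns were joined to samples by names that equal a sample title, apart from the E14 organoids. Their columns write the same embryonic day in another form. The 1 column that matched no title was not used.

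Values were used as log2(TPM + 1). Genes with at least 1 TPM in at least 2 libraries were tested with limma 3.58.1 in R 4.3.3 (lmFit, then eBayes with trend, two-sided, Benjamini-Hochberg over all genes). The script was tested on simulated data. The 8 factor libraries shared 1 fit, and the 14 tips and organoids 1 fit for each of 2 questions, the difference and the slope per 10 days. Single libraries were described only. Replicate numbers of the factor series did not pair the libraries, with correlations of deviations between -0.070 and 0.114. Coordinates are from GENCODE M21 and promoters from RefSeq. Tables and figures used Python 3.11.15 with pandas 2.3.3 and matplotlib 3.10.9.

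All 10 members were named everywhere, with up to 4 called genes of each other list per contrast and the 6 genes most like H2-Ab1. The members and lists were chosen with earlier results of these data known. Alternatives tried were a pseudocount of 0.1 TPM, no filter, median-ratio rescaling, no mitochondrial genes, a replicate block, only the 2 groups compared, only organoids of 11 to 13 days, no start stage term and leaving out each library.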

Additional observations from a re-analysis of the deposited data

Results flagged for a closer look

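In 2 of the 19 sets of tip or organoid levels examined, 1 library stood far from the others of its group. H2-Eb1 was at 0.52 TPM in the E13.5 tip and listed at 0 in the other 3 tips. Ciita was at 1.56 TPM in the E11.5 tip and listed at 0 in the other 3. Both gaps take up the whole range of the group because the other values are 0. At the rule's nominal rate, chance alone singles out about 1 set in 20, and that rate was not measured for sets with tied zeros.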

How the results depend on the processing

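Organoids against tips gave calls for all 10 members in each of the 9 alternatives, including only organoids of 11 to 13 days. The slope on culture day was called for 3 to 8 members when 1 organoid was left out. For ALL-FGF10 against ALL, where 1 member was called, 0 were called with a pseudocount of 0.1 TPM, with no filter, without mitochondrial genes and with a replicate block, while 4 were with median-ratio rescaling and 4 with only the 2 groups compared, and 0 to 6 when 1 library was left out. For ALL-MTG against ALL, where 3 were called, 0 were called with no filter, with a replicate block and with only the 2 groups compared, and 0 to 2 when 1 library was left out. ALL-FGF10 against ALL-MTG gave 0 or 1 when 1 library was left out, and 0 otherwise. The causes were not tested. A fit with 1 library of a group left out assumes that the lone library varies like the other groups. No member's difference changed sign in any alternative of the organoid, slope or ALL comparisons. Median-ratio rescaling moved the median difference of all genes from -0.20 to 0.06 in organoids against tips and from 0.18 to 0.00 in ALL-VC against ALL. Depth is unknown, so low values such as those of Ciita have no counting interval.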

Other observations

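H2-Ea-ps, annotated as a polymorphic pseudogene of the class II E alpha chain (GRCm38 chromosome 17, 34341959-34344645), varied widely between libraries. It was at 284 TPM in up-half, 161 in left-half, 103 in down-half and 91.1 in the intact organoid, at 126 TPM in the E14 organoid of day 24, and at 33.0 TPM in up-half-left. The E10.5 and E14 organoids of day 11 had 19.4 and 15.9 TPM. In these 8 libraries it stood at 0.356 to 0.83 of H2-Aa, and in the other 24 with H2-Aa of at least 5 TPM at 0.28 or less. The same 8 libraries had H2-D1 at 0.151 to 0.301 of H2-K1 and H2-T22 at 7.78 to 30.8 TPM. The other 24 overlapped them in both, at 0.258 to 0.72 and at 0.27 to 18.1 TPM. They differ from the 5 libraries with very low H2-Eb1. The labels name no strain, and the cause was not tested.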
